A study of Mus musculus with 4 samples.

Results

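The circadian clock genes were described in tibialis anterior (TA) muscle of the mouse, from the RNA-Seq counts of 4 libraries. They are Clock, Per1, Per2, Per3, Cry1, Cry2, Nr1d1, Nr1d2, Dbp and Tef, chosen by gene symbol and not by their values, and all 10 were among the 13825 genes of the count table. Adult male WT mice gave sham (WS) and denervated (WD) muscle, and adult male Fgf21KO mice gave the same kinds (KS and KD), all collected 14 days after the sciatic nerve was cut. WT mice were C57BL/6J, and Fgf21KO mice lack the growth factor gene Fgf21 in the whole body. Their background strain and the exact ages are not given in the sources used here. RNA of 4 muscles was pooled into each library, so that each group was a single library and no difference between 2 libraries had a replicate check. Denervated and sham muscles were the opposite legs of mice, and the labels leave the control leg unoperated whereas the methods describe a sham operation on it. Mice were kept under equal light and dark phases with free access to chow, and the time of day at which muscles were collected is not given in the sources used here. The phase of the clock at collection is therefore unknown.

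In mammals, the transcription factors CLOCK and BMAL1 (encoded by Arntl) pair on E-box sequences and activate the Period and Cryptochrome genes, whose proteins return to the nucleus and repress their own activators. A second loop runs through the nuclear receptors REV-ERBα (Nr1d1) and REV-ERBβ (Nr1d2), which repress Arntl and Clock against the activating ROR receptors. Dbp and Tef encode PAR bZIP factors, which carry the rhythm to output genes through D-box sequences. Skeletal muscle holds its own clock, known to be set by feeding, glucocorticoids and contractile activity, and to govern genes of glucose uptake and fuel choice.

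The total count ran from 25249879 (WS) to 34141303 (KS), and the member with the fewest reads, Cry1, still had 363 to 487 counts per library. Counts are given beside CPM, the counts scaled by TMM and by library size. Intervals (95%) cover counting error only and leave out the spread between mice. In bulk muscle, fewer cells of a type and less RNA per cell cannot be told apart. Scaled by the total count alone instead, the median log2 ratio of all genes to sham was 0.29 in WT and 0.36 in Fgf21KO, against 0.01 in both under TMM, so that the ratios given here are relative to the typical gene. The share of counts from mitochondrially encoded genes was lower after denervation, at 27.3% in WS and 30.8% in KS against 19.6% in WD and 20.8% in KD. Of 9 myofibre markers, Myh1 and Mylpf were in the table, and their summed level was 31676 to 33773 CPM in sham and 20944 to 23101 CPM in denervated muscle. The 6 macrophage markers summed to 13.8 CPM in both sham libraries and to 35.0 to 37.7 CPM in the denervated ones. For 5 of these 6 in WT and 5 in Fgf21KO, the counting interval of the log2 ratio to sham lay above 0. The summed level of the 5 endothelial markers was lower after denervation (443.2 to 545.8 against 231.3 to 231.5 CPM). So was that of the 6 fibro-adipogenic markers (596.1 to 617.5 against 404.8 to 421.5 CPM), though not of each one. The counting interval of the log2 ratio to sham lay below 0 for all 6 in WT. In Fgf21KO it lay below 0 for 5 and above 0 for 1. Few of the Schwann cell markers (2 of 5, 4.95 to 6.70 CPM) and satellite cell markers (1 of 4, 3.83 to 5.52 CPM) were in the table. The part of these cell types in the values below was not tested. Fgf21 itself was not analysed here, which leaves the genotype labels without a check on the targeted gene.

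Per kilobase of the longest annotated transcript, the output factors were the most abundant members and the core activator and repressors the least. Dbp ranged from 86.2 to 101 CPM per kb over the 4 libraries and Tef from 88.7 to 94.3. Nr1d1 (43.4 to 62.6) and Nr1d2 (37.9 to 55.5) followed. Per1, Cry2 and Per3 lay between 8.03 and 20.1 CPM per kb, and Cry1, Per2 and Clock between 3.50 and 5.54. The order of the last 6 was not the same in sham and denervated muscle. In both sham libraries Clock was the lowest member and Cry1 lay above Per2. In both denervated libraries Cry1 was the lowest, and Cry2 lay more than 2-fold above Per1 per kb (2.32 in WD and 2.18 in KD) where it had been close to it (Per1 1.09 times Cry2 in WS, Cry2 1.04 times Per1 in KS). By counting error, neighbours in this order could not be separated for Tef and Dbp in WD and KD, Cry2 and Per1 in KS, and Nr1d1 and Nr1d2, Per1 and Per3, and Per2 and Clock in KD. With the length of all annotated exons in place of the longest transcript, Dbp led in every library, Cry2 lay above Per1 in WS too, and Per3 lay above Per1 in WD, KS and KD.

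**Figure D1:**
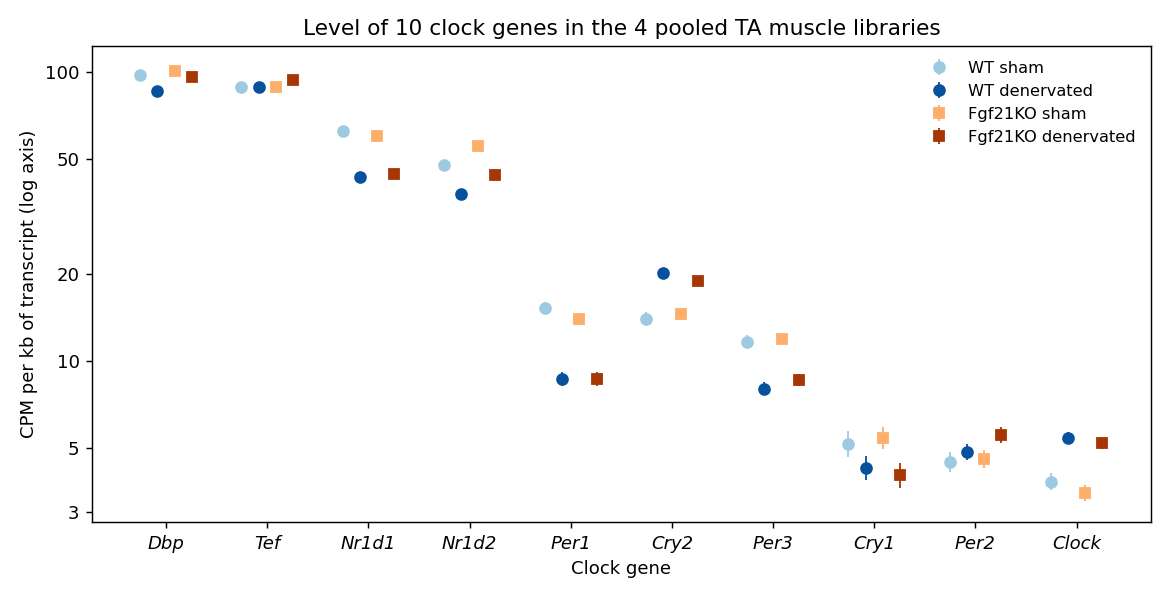
Level of each clock gene in the 4 libraries, as TMM-scaled CPM per kb of the longest transcript on a log axis, with genes ordered by their WS level and 95% counting intervals. Dbp and Tef lie between 86.2 and 101 CPM per kb in every library. Both denervated libraries lie above both sham libraries for Clock, Per2 and Cry2, and below them for Per1, Per3, Cry1, Nr1d1, Nr1d2 and Dbp. The WD vs WS ratio of Per2 was within counting error.

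Promoter sequences of the 2 Period and the 2 Cryptochrome genes with a clock motif are shown because the clock factors above are known to act through such letters. They come from RefSeq on GRCm38.p6 (the counts were made on GRCm39, by the submitters' processing notes), and cover 250 bases before to 50 after each transcription start, 5′ to 3′ on the gene's strand. Capitals mark an E-box (CACGTG), an E'-box (CACGTT, which reads AACGTG when it lies on the opposite strand) or a D-box (TTATGTAA or TTACGTAA). Coordinates are chr11:69098699-69098998 for Per1 (plus strand), chr4:151044616-151044915 for Per3 (minus strand), chr10:85185005-85185304 for Cry1 (minus strand) and chr2:92434020-92434319 for Cry2 (minus strand).
Per1: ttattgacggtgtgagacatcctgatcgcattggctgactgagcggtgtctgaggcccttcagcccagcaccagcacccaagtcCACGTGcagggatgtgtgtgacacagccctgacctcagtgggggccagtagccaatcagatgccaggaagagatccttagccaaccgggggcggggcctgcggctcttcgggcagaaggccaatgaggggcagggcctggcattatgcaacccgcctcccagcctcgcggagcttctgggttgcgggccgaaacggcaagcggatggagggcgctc
Per3: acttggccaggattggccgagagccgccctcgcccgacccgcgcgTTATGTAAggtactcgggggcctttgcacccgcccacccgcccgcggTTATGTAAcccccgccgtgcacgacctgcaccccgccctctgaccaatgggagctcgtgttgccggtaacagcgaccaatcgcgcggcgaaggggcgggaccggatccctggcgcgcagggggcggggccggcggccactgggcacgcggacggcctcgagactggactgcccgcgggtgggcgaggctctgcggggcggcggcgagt
Cry1: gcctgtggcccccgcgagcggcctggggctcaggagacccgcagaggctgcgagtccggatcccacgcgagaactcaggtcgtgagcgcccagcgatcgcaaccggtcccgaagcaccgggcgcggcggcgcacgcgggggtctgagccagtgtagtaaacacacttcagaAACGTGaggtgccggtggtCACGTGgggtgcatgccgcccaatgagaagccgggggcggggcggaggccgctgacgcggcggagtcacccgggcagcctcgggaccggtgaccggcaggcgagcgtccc
Cry2: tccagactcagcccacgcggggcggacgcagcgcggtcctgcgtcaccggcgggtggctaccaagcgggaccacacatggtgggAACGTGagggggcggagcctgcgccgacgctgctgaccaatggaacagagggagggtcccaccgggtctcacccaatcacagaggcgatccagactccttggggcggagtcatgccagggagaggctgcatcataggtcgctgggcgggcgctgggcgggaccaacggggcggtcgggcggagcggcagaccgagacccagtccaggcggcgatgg

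Of the 10 members, 9 had at least 1 promoter in the table (13 promoters in all), and Per2 had none. Both strands were searched, and no marked site overlapped another. The E-box was in 4 of these promoters, those of Per1 (1 of its 2 promoters), Cry1 and Tef (both), and in 7.15% of all 32851 promoters. The E'-box was in those of Cry1, Cry2 and Nr1d1 (4.68% of all promoters). The Per3 promoter held 2 copies of the D-box, at -205 and -158 from the start, a motif of 1.06% of all promoters. The cAMP response element (TGACGTCA, 1.79% of all) and the RORE (0.384%), searched by name, were in no member's window. Such matches describe letters and are not sites of binding shown in these muscles. Whether the motifs bear on the responses to denervation was not tested.

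Clock, the activator, was higher in denervated muscle of both genotypes. It had 867 counts in WS and 1012 in KS against 1715 in WD and 1566 in KD. After scaling, its level was 37.3 CPM in WS and 34.1 in KS against 52.6 in WD and 50.6 in KD, and both denervated libraries lay above both sham libraries. The log2 ratio was 0.50 (95% counting interval 0.38 to 0.61) for WD vs WS and 0.57 (0.46 to 0.69) for KD vs KS, or 1.41-fold and 1.49-fold. In an additive model with terms for genotype and surgery, fitted on all 4 libraries, Clock rose after denervation by 0.53 ± 0.08 (log2, SE; adjusted p = 1.61e-05, edgeR quasi-likelihood F test, Benjamini-Hochberg over 13084 genes). In that model the genotypes stand in as replicates of the surgery, with 1 residual degree of freedom, and its p-values measure only the spread between these pooled libraries, which may be technical. A larger absolute log2 ratio than that of Clock was found for 41.3% of all genes in WT and for 34.8% in Fgf21KO.

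The Period genes, the first repressor arm, did not move together. Per1, which responds rapidly to glucocorticoids and other signals, had 1659 counts in WS and 1937 in KS against 1320 in WD and 1249 in KD. Its level was 71.3 CPM in WS and 65.2 in KS against 40.5 in WD and 40.4 in KD. Both denervated libraries were thus near 40 CPM whatever the genotype. Its log2 ratio was -0.82 (-0.92 to -0.71) for WD vs WS and -0.69 (-0.79 to -0.59) for KD vs KS, which left 0.568 and 0.620 of the sham level. Over both genotypes Per1 fell by 0.75 ± 0.08 (adjusted p = 1.15e-07, edgeR). Under TMM scaling this was the member with the largest absolute ratio in either genotype, whereas with counts scaled by the total alone its ratios of -0.54 and -0.33 were smaller in size than those of Clock (0.78 and 0.93) and Cry2 (0.80 and 0.73). Under TMM, 21.8% of all genes in WT and 27.1% in Fgf21KO had a larger one.

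Per3, the Period gene with D-boxes in the promoter shown above, had 1630, 1570, 2128 and 1598 counts in WS, WD, KS and KD. Its level was 70.05 CPM in WS and 71.6 in KS against 48.1 in WD and 51.7 in KD. As for Per1, both denervated libraries lay below both sham libraries. The log2 ratio was -0.54 (-0.64 to -0.44) in WT and -0.47 (-0.56 to -0.38) in Fgf21KO, and Per3 fell by 0.51 ± 0.08 over both genotypes (adjusted p = 1.38e-05, edgeR), a call that was lost with counts scaled by the total alone (-0.19). Per2, the Period gene most tied to the timing of the clock itself, gave 607, 919, 794 and 1000 counts in the same order. Its level was 26.1 CPM in WS and 26.7 in KS against 28.2 in WD and 32.3 in KD. The denervated libraries lay above the sham ones, but the WD vs WS log2 ratio of 0.11 had a counting interval from -0.04 to 0.26 that included 0. In KD vs KS it was 0.27 (0.14 to 0.41). The effect over both genotypes, 0.20 ± 0.10, did not pass the test (adjusted p = 0.0934, edgeR), but did with counts scaled by the total alone (0.51).

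The Cryptochromes, which complete the repressor complex with the PER proteins, moved in opposite directions. Cry2 had 1297 counts in WS and 1719 in KS against 2607 in WD and 2321 in KD. Its level was 55.7 CPM in WS and 57.9 in KS against 79.9 in WD and 75.1 in KD, with both denervated libraries above both sham libraries. The log2 ratio was 0.52 (0.42 to 0.62) for WD vs WS and 0.38 (0.29 to 0.47) for KD vs KS, or 1.43-fold and 1.30-fold. Cry2 rose over both genotypes by 0.45 ± 0.08 (adjusted p = 6.03e-05, edgeR). Cry1, the stronger transcriptional repressor of the pair, had 363, 421, 487 and 376 counts in WS, WD, KS and KD. Its level was 15.6 CPM in WS and 16.4 in KS against 12.9 in WD and 12.2 in KD. Here both denervated libraries lay below both sham libraries. The log2 ratio was -0.27 (-0.47 to -0.07) in WT, which became 0.00659 when counts were scaled by the total alone, and -0.43 (-0.62 to -0.23) in Fgf21KO. Cry1 fell over both genotypes by 0.35 ± 0.12 (adjusted p = 0.0187, edgeR), and this call was lost with DESeq2's Wald test and with total-count scaling. The 2 genes differ in the promoter windows shown above, where Cry1 held an E-box at -60 and an E'-box at -79, and Cry2 an E'-box alone at -166. Whether this bears on their directions was not tested.

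The REV-ERB receptors, which repress Arntl and Clock and also act on lipid and mitochondrial genes in muscle, were both lower after denervation. Nr1d1 had 3964, 3847, 4877 and 3734 counts in WS, WD, KS and KD. Its level was 170.3 CPM in WS and 164.2 in KS against 118 in WD and 120.8 in KD. The denervated libraries differed from each other by far less than either did from its sham library. Its log2 ratio was -0.53 (-0.59 to -0.47) in WT and -0.44 (-0.50 to -0.38) in Fgf21KO, and Nr1d1 fell by 0.49 ± 0.07 over both genotypes (adjusted p = 8.12e-06, edgeR). With counts scaled by the total alone, its ratio was -0.25 in WT and -0.09 in Fgf21KO, and the effect was -0.17 (adjusted p = 0.0499, edgeR). On the opposite strand, Thra shares 263 exon bases with Nr1d1 (9.67% of its exon bases), and although the library kit marks strand, the strand setting of the counting is not given in the sources used here.

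Nr1d2 had 5191, 5766, 7694 and 6341 counts in WS, WD, KS and KD. Its level was 223.1 CPM in WS and 259 in KS against 176.8 in WD and 205.1 in KD. Denervated muscle lay below sham muscle within each genotype, and the Fgf21KO library lay above the WT library within each surgery. The log2 ratio to sham was -0.34 (-0.39 to -0.28) in WT and -0.34 (-0.38 to -0.29) in Fgf21KO, the latter becoming 0.02 with counts scaled by the total alone. Over both genotypes Nr1d2 fell by 0.34 ± 0.07 (adjusted p = 4.00e-04, edgeR), and under that scaling the effect of -0.02 did not pass.

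Of the PAR bZIP output factors, neither passed the test for denervation. Dbp, a classic E-box target with a very large daily swing in many tissues, had 4169, 5166, 5512 and 5444 counts in WS, WD, KS and KD. Its level was 179.2 CPM in WS and 185.5 in KS against 158.4 in WD and 176.1 in KD. The log2 ratio was -0.18 (-0.24 to -0.12) in WT and -0.08 (-0.13 to -0.02) in Fgf21KO, but 0.10 and 0.28 with counts scaled by the total alone. The effect over both genotypes was -0.13 ± 0.07 (adjusted p = 0.142, edgeR), and 0.19 with a pass of the test under that scaling. Sphk2, on the opposite strand, shares 539 exon bases with Dbp (29.3% of its exon bases). Tef, a related factor with a flatter rhythm, had 9113, 12737, 11638 and 12834 counts, the most of the 10 members. Its level was 391.6 CPM in WS and 391.7 in KS against 390.6 in WD and 415.1 in KD, and it was the only member whose sham and denervated libraries overlapped. Its log2 ratio was -0.0039 (-0.04 to 0.03) in WT, against 0.28 with counts scaled by the total alone, and 0.08 (0.05 to 0.12) in Fgf21KO. The effect over both genotypes was 0.04 ± 0.07 (adjusted p = 0.661, edgeR), and 0.36, which passed, under that scaling.

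**Figure D2:**
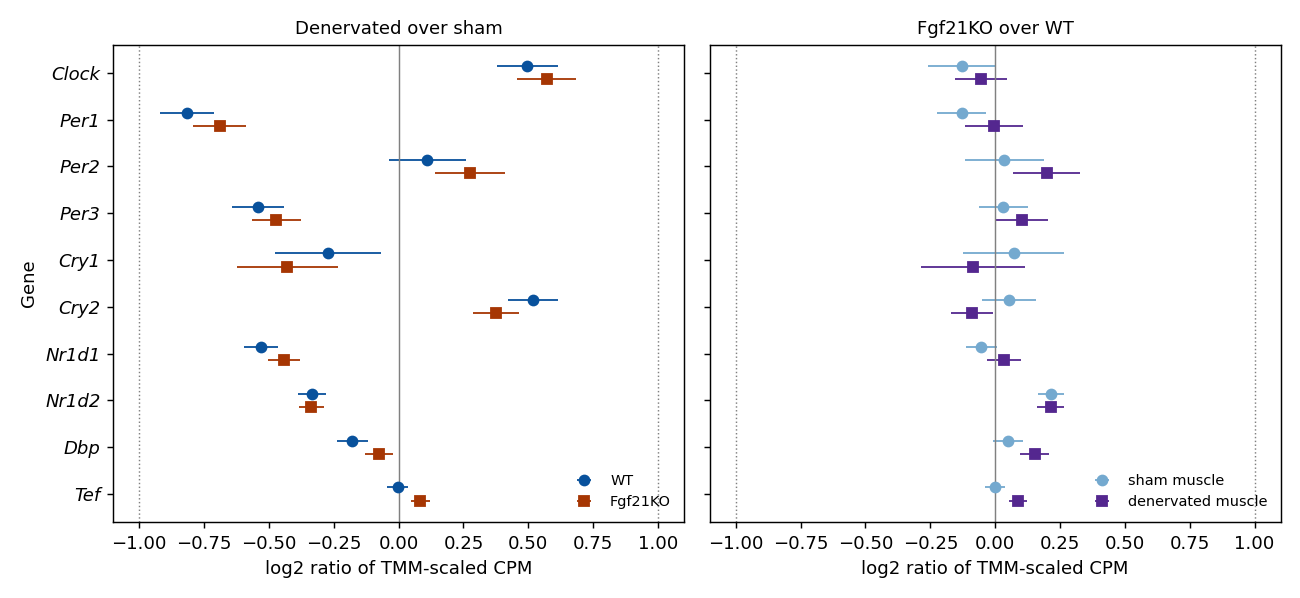
Log2 ratios of TMM-scaled CPM for each clock gene, denervated over sham in WT and Fgf21KO mice at left and Fgf21KO over WT in sham and denervated muscle at right, with 95% counting intervals and dotted lines at 2-fold. No point reaches 2-fold, and with counts scaled by the total alone the points of Cry1 in WT, Nr1d2 in Fgf21KO, Dbp in both genotypes and Tef in WT change sign at left, and those of Per2, Per3, Cry1, Cry2, Dbp and Tef in sham muscle at right.

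Across the 10 members, none was at least 2-fold apart in any of the 4 comparisons, against 14.8% of all genes tested for denervation in WT and 13.6% in Fgf21KO, and 2.04% for genotype in sham and 1.56% in denervated muscle. The median absolute log2 ratio to sham was 0.42 in WT and 0.40 in Fgf21KO for the members, and 0.40 and 0.39 for all genes. The counting interval of the ratio excluded 0 for 8 members in WT (2 above and 6 below sham) and for 10 in Fgf21KO (4 above and 6 below), and for 66.4% and 66.9% of all genes. Requiring an adjusted p below 0.05 and a 2-fold change, edgeR's additive model called 0 members for denervation (13.0% of all genes). DESeq2 called 0 with the 2-fold change too (11.2% of all genes with an adjusted p-value). By the adjusted p-value alone, 2 members rose (Clock and Cry2) and 5 fell (Per1, Per3, Cry1, Nr1d1 and Nr1d2), while Per2, Dbp and Tef did not pass. That share stands beside 52.9% of all genes, with 26.4% of all genes up and 26.6% down. With counts scaled by the total alone, 5 members passed above sham (Clock, Per2, Cry2, Dbp and Tef) and 2 below it (Per1 and Nr1d1), beside 46.7% and 12.8% of all genes. In DESeq2, 6 members passed by the adjusted p-value alone, and 37.3% of all genes with an adjusted p-value did. The denervated libraries did not overlap the sham libraries for 9 members (3 above and 6 below), and for 74.9% of all genes (38.3% above and 36.5% below).

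Ratios of 2 genes' counts within a library do not depend on scaling between libraries, and the pairs given here were chosen after their values were seen. Cry2 had 3.57 times the counts of Cry1 in WS and 3.53 times in KS, but 6.19 times in WD and 6.17 times in KD. The ratio thus changed 1.73-fold (1.48 to 2.02) in WT and 1.75-fold (1.51 to 2.03) in Fgf21KO muscle. Within the Period family, Per1 had 2.73 times the counts of Per2 in WS and 2.44 times in KS, and 1.44 times in WD and 1.25 times in KD. Denervation left 0.526 (0.464 to 0.596) of that ratio in WT and 0.512 (0.455 to 0.576) in Fgf21KO. The ratio of Per3 to Per2 was 2.69, 1.71, 2.68 and 1.60 in WS, WD, KS and KD.

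Between the activator and its repressors, Clock was paired with Per1 and Nr1d1, which both fell. Other repressors were not paired with it, among them Cry2, which rose as Clock did. Under TMM the log2 ratios of Cry2 to sham were 0.52 in WT and 0.38 in Fgf21KO, against 0.50 and 0.57 for Clock. The ratio of Clock to Per1 counts was 0.523 in WS and 0.522 in KS, and 1.30 in WD and 1.25 in KD. Clock therefore had fewer reads than Per1 in sham and more in denervated muscle, a 2.49-fold (2.23 to 2.77) change in WT and a 2.40-fold (2.16 to 2.67) change in Fgf21KO. The ratio of Clock to Nr1d1 was 0.219, 0.446, 0.208 and 0.419 in WS, WD, KS and KD. It changed 2.04-fold in WT and 2.02-fold in Fgf21KO. Smaller shifts were seen between output factors, where Tef over Dbp went from 2.19 to 2.47 in WT and from 2.11 to 2.36 in Fgf21KO. These are ratios of read counts without correction for transcript length, so that only their change between libraries can be read.

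**Figure D3:**
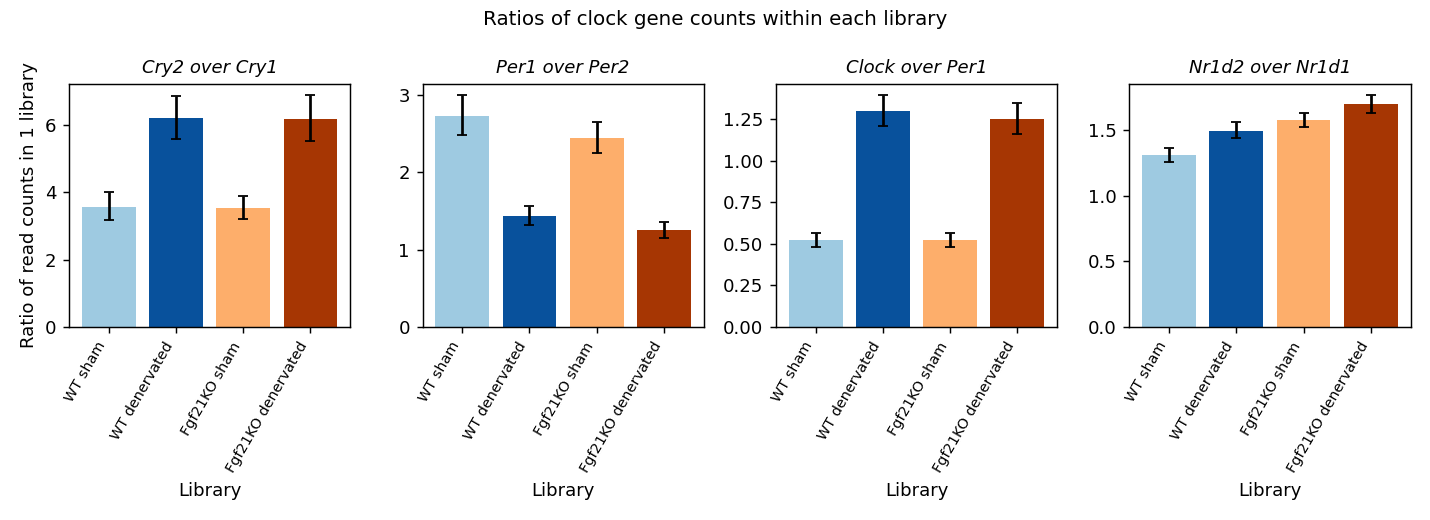
Ratio of the read counts of 2 clock genes within each library, with bars starting at 0 and 95% counting intervals. Cry2 over Cry1 and Clock over Per1 are higher and Per1 over Per2 is lower in both denervated libraries, while Nr1d2 over Nr1d1 is lowest in WS at 1.31 and highest in KD at 1.70.

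Whether Fgf21 loss altered the clock genes was asked in sham and in denervated muscle. The median absolute log2 ratio of Fgf21KO over WT was 0.05 for the members in sham and 0.09 in denervated muscle, and 0.15 and 0.11 for all genes. Over both surgeries, edgeR called 0 members for genotype with or without the 2-fold change (0.168% and 0.573% of all genes), and DESeq2 called 0. Here the sham and denervated pools stand in as replicates of the genotype. They may come from the same mice, so that values in sham and denervated muscle are not independent checks of a genotype difference. Of the members, Nr1d2 had the lowest unadjusted p-value for genotype in edgeR. Its log2 ratio was 0.22 (0.16 to 0.27) in sham and 0.21 (0.16 to 0.27) in denervated muscle, or 1.16-fold higher in Fgf21KO in both, with a model effect of 0.21 ± 0.07 (adjusted p = 0.320, edgeR). Of all genes, 35.8% in sham and 27.7% in denervated muscle had a larger absolute ratio than Nr1d2.

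In sham muscle, the counting interval excluded 0 for Nr1d2 and for Per1, which was lower in Fgf21KO (-0.13, -0.22 to -0.03), against 34.4% of all genes. In denervated muscle it excluded 0 for 6 members, against 28.4% of all genes. Of these, Nr1d2, Per2 (0.20, 0.07 to 0.33), Per3 (0.10), Dbp (0.15, 0.10 to 0.21) and Tef (0.09, 0.05 to 0.12) were higher in Fgf21KO, and Cry2 was lower (-0.09). A counting interval is narrower for a gene with more reads, and the shares of all genes were not matched to the members by read count.

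The denervation response was compared between genotypes as the log2 ratio in Fgf21KO minus that in WT. This difference had a counting interval that excluded 0 for 3 members, Cry2 (-0.14, -0.28 to -0.01), Dbp (0.10, 0.02 to 0.18) and Tef (0.09, 0.03 to 0.14), against 29.2% of all genes. For the other members it ran from -0.16 (Cry1, -0.44 to 0.12) to 0.16 (Per2, -0.04 to 0.36). For Cry2 the difference became -0.07 with counts scaled by the total alone, which was within counting error. The median absolute difference was 0.09 for the members and 0.17 for all genes. With 1 library per group these differences could not be tested.

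Other genes of the clock were taken from 3 lists. Of 11 genes listed as other clock transcription factors, 9 were tested. For denervation, 1 rose, 5 fell and 3 did not pass by edgeR's adjusted p-value alone (2 fell at least 2-fold). Of all genes, 26.4% rose and 26.6% fell. With counts scaled by the total alone, 3 were above sham and 4 below, and 1 (Bhlhe41) fell at least 2-fold. Under that scaling, 46.7% of all genes passed above sham and 12.8% below. Arntl, the partner of CLOCK, rose by 0.49 ± 0.15 over both genotypes (log2, adjusted p = 0.00773, edgeR). It had only 201 counts in WS and 218 in KS against 347 in WD and 364 in KD, and its log2 ratio was 0.30 (0.05 to 0.55) in WT and 0.68 (0.44 to 0.92) in Fgf21KO. Clock and Arntl, both activators, were thus higher in the denervated library of each genotype.

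The lowest ratios of this list belonged to Bhlhe41 (DEC2), an E-box repressor of CLOCK and BMAL1, and to Hlf, the third PAR bZIP factor. Bhlhe41 had 2197 counts in WS and 3063 in KS against 1137 in WD and 1209 in KD, with log2 ratios of -1.44 (-1.54 to -1.33) and -1.40 (-1.49 to -1.30). Hlf had 652, 405, 868 and 388 counts in WS, WD, KS and KD, with log2 ratios of -1.17 (-1.35 to -0.99) and -1.21 (-1.39 to -1.04). Scaled by the total count alone, the ratios of Hlf were -0.89 and -0.86, short of 2-fold, and those of Bhlhe41 were -1.16 and -1.04. Both fell in the additive model, Bhlhe41 by 1.42 ± 0.08 (adjusted p = 5.02e-12, edgeR) and Hlf by 1.20 ± 0.11 (adjusted p = 9.80e-09, edgeR). The PAR bZIP family was therefore uneven, and Tef had 14.0 times the counts of Hlf in WS and 13.4 times in KS, but 31.4 times in WD and 33.1 times in KD.

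Of the remaining genes of this list, 3 fell in the additive model. They were the repressor Ciart (-0.80 in WT and -0.59 in Fgf21KO), Timeless (-0.90 and -0.70), and Nfil3 (-0.21 and -0.47), which opposes the PAR bZIP factors on D-boxes. Timeless, though listed here, is not a transcription factor. Rora (-0.13 and 0.01), Bhlhe40 (-0.0068 and -0.19) and Arntl2 (-0.28 and -0.28, with 58 to 69 counts) did not pass. With counts scaled by the total alone, Nfil3 no longer passed (nor did it without a filter on low counts, adjusted p = 0.0538, edgeR), and Rora (0.26 over both genotypes) and Bhlhe40 (0.22) passed above sham. Npas2 and Rorb were not analysed here.

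**Figure D4:**
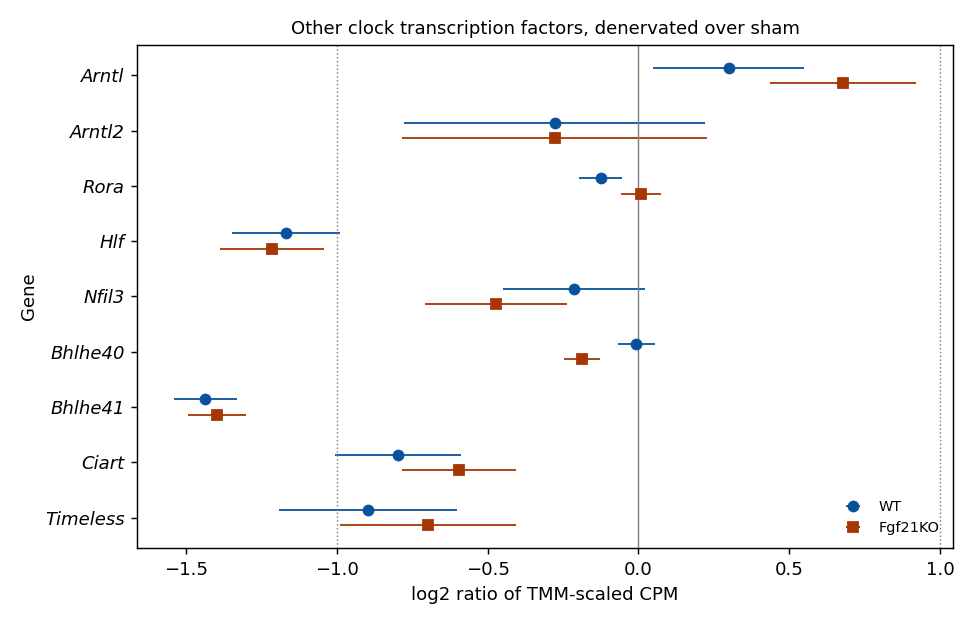
Log2 ratios of TMM-scaled CPM, denervated over sham, for 9 genes listed as other clock transcription factors in WT and Fgf21KO mice, with 95% counting intervals and dotted lines at 2-fold. Bhlhe41 and Hlf lie beyond 2-fold lower in both genotypes, and Arntl lies above 0 in both.

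Among 13 modifiers of clock proteins and their cofactors, 12 were tested and 10 fell, 0 rose and 2 did not pass by edgeR's adjusted p-value alone. This count depended on scaling, since with counts scaled by the total alone 3 were below sham, 2 above and 7 did not pass. A single one was at least 2-fold lower in both genotypes. This was Prkaa2, the AMPK catalytic subunit known to mark CRY1 for degradation, with log2 ratios of -1.05 (-1.10 to -1.01) and -1.33 (-1.38 to -1.29). Of 14 muscle clock output and glucocorticoid-responsive genes, 11 were tested, and 5 rose, 5 fell and 1 did not pass (6, 3 and 2 with counts scaled by the total alone). Slc2a4, the insulin-responsive glucose transporter GLUT4, was lower in both genotypes (-1.15, -1.19 to -1.12, and -1.30, -1.33 to -1.26). Fkbp5, a glucocorticoid receptor target, was lower too (-1.06, -1.25 to -0.88, and -1.14, -1.30 to -0.98). Beyond 2-fold under TMM, Prkaa2, Slc2a4 and Fkbp5 stayed below sham in both genotypes with counts scaled by the total alone, at model effects of -0.88, -0.91 and -0.79. For all 3 lists, the counts of called genes under TMM stand beside 52.9% of all genes, with 26.4% up and 26.6% down. Those with counts scaled by the total alone stand beside 46.7% of all genes up and 12.8% down. No gene of the 3 lists passed for genotype by the adjusted p-value.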

How the data were processed

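RNA of TA muscles (RNeasy, TruSeq Stranded mRNA kit) was sequenced as 1 pooled library for each of 4 groups. Samples were assigned to groups by their titles. The authors deposited unnormalized read counts for each gene. They also deposited values on a log2 scale, which were found to be log2(count × factor + 1) with a single factor for each library and hence no correction for gene length. The submitters' processing notes name FastQC and GRCm39, and the aligner and counting tool are not given in the sources used here. All columns were used (0 left out).

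Of 13825 genes, the 13084 with a mean count of at least 10 were tested, among them all 10 clock genes. Library sizes were scaled by TMM over all genes (edgeR 4.0.16, R 4.3.3), and pairs of libraries were compared by log2 CPM with a prior count of 2. The main comparison of single libraries has no test. The effects of surgery and genotype were tested with edgeR (glmQLFit, glmQLFTest) on an additive design (common biological coefficient of variation 0.068), with Benjamini-Hochberg adjustment. The words rose and fell are used for an adjusted p-value below 0.05 alone, and the study's further condition of a 2-fold change is given as well. Alternatives were DESeq2 1.42.0, its size factors, total counts, TMM without mitochondrially encoded genes, other filters (none, 50), the deposited log2 values, prior counts of 0.125 and 5, and edgeR's exact test at assumed variation of 0.1, 0.2 and 0.4. Transcript lengths were taken from GENCODE M21 and promoters from RefSeq (GRCm38.p6). The code was tested on simulated data. Tables were made in Python 3.11.15.

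The clock genes, the gene lists and the tests were chosen with earlier results of these data known. Named genes are all 10 members, all genes listed as other clock transcription factors, and those of the other 2 lists at least 2-fold apart in the same direction in both genotypes or in both surgeries. The other genes of the lists, and the marker genes, are given by counts or sums. A single result of the lists is not reported here, and is left out of the counts.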

Additional observations from a re-analysis of the deposited data

Results flagged for a closer look

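For 4 clock genes, the same contrast had opposite signs in the 2 groups compared, and none of these differences was tested, since each group is 1 library. The genotype ratio (log2, Fgf21KO over WT) of Cry1 was 0.07 in sham and -0.09 in denervated muscle, a difference of -0.16. That of Cry2 was 0.05 and -0.09, a difference of -0.14, and that of Nr1d1 was -0.05 and 0.03, a difference of 0.0872. The denervation ratio of Tef was -0.0039 in WT and 0.08 in Fgf21KO, a difference of 0.0873. The counting interval of the difference excluded 0 for Cry2 and Tef and included 0 for Cry1 and Nr1d1. With counts scaled by the total alone, the opposite signs were lost for Cry1 and Cry2 in sham muscle (-0.01 and -0.03) and for Tef in WT (0.28).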

How the results depend on the processing

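The labels hold no replicate numbers to pair samples by. The genotype term of the additive model sets each denervated pool beside the sham pool of its genotype. Without that term the same 7 members passed for denervation, with adjusted p-values from 8.27e-06 (Per1) to 0.0248 (Cry1) in edgeR. The share of all genes passing without it was not worked out, and 52.9% passed with it. The count of 0 clock genes at least 2-fold apart was the same in all 4 comparisons under every alternative that was run. Dropping the 2-fold condition raised the members called for denervation from 0 to 7, and the share of all genes from 13.0% to 52.9%. Scaling by total counts alone moved the median log2 ratio of all genes to 0.29 for denervation in WT, 0.36 for denervation in Fgf21KO and -0.08 for genotype in sham muscle, from 0.01, 0.01 and 0.0003, and a member's ratio is best read relative to it. Under that scaling the members whose response differed between genotypes beyond counting error went from 3 to 7, and the share of all genes from 29.2% to 30.1%. Cry2 was no longer among these members. The model effect of denervation became 0.19 for Dbp, which reversed it and passed the test, 0.51 for Per2 and 0.36 for Tef, which passed, and -0.19 for Per3, -0.03 for Cry1 and -0.02 for Nr1d2, which no longer did. The split of calls by the adjusted p-value thus turned from 2 up and 5 down to 5 up and 2 down. Of all genes, the share up went from 26.4% to 46.7% and the share down from 26.6% to 12.8%. DESeq2's Wald test gave -0.36 for Cry1, without passing. The ratios of Clock and Cry2 above sham, and of Per1, Per3 and Nr1d1 below it, kept their direction in both genotypes under every scaling tried. Without the mitochondrially encoded genes in the scaling, the ratio for WD vs WS was 0.50 for Clock and -0.82 for Per1, as in the report. Under TMM, counting error alone left intervals that included 0 for the WD vs WS ratios of Per2 and Tef. It did so too for the difference of the denervation response between genotypes in all members but Cry2, Dbp and Tef. A single pooled library per group leaves the spread between mice unknown.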
